A study of Homo sapiens with 6 samples.

Results

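The genes described here are those of the receptors and binding partners of the insulin-like growth factors (IGFs), measured by RNA-seq after knockdown of TARDBP in SH-SY5Y, a line derived from a human neuroblastoma, a tumour of the sympathetic nervous system. They were chosen by symbol, with earlier results of these data known, as 10 genes of the 27961 gene rows in the count files: the receptors IGF1R and IGF2R, the secreted binding proteins IGFBP2, IGFBP3, IGFBP4, IGFBP5 and IGFBP6, and the IGF2 mRNA-binding proteins IGF2BP1, IGF2BP2 and IGF2BP3. All 10 had a row, and 9 had enough counts to be tested, the exception being IGF2BP1. The study held 6 libraries in 3 groups of 2: cells with a hairpin against TARDBP (TRCN0000016038), cells with control hairpin 2 (SHC016) and cells with control hairpin 1 (SHC007). Every group consisted of SH-SY5Y cells infected with lentivirus in polybrene at 8 µg/mL and selected from 48 h after infection for 3 days in puromycin at 2 µg/mL. A single hairpin stood for the knockdown, and nothing in the labels ties the replicates of a hairpin to cultures of their own. The p-values below therefore reflect the scatter among these 6 libraries alone, which may be technical.

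IGF1 and IGF2 are secreted growth factors that signal through IGF1R, a receptor tyrosine kinase that activates the PI3K-AKT and MAP kinase pathways. IGF2R, also the cation-independent mannose 6-phosphate receptor, takes up IGF2 for breakdown in lysosomes and carries lysosomal enzymes, and it has no kinase domain. The IGFBPs hold IGFs outside the cell, where they can withhold them from the receptor or prolong their life, and proteases release the ligand by cutting them. The IGF2BPs share a name with this family through their binding of IGF2 mRNA, but they are cytoplasmic RNA-binding proteins of fetal tissue and tumours that act on many transcripts. TDP-43, the product of TARDBP, is an RNA-binding protein that prefers stretches of UG repeats.

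Because TDP-43 binds UG repeats, the longest such stretch in the principal transcript of each gene (GENCODE v29, GRCh38, read as DNA, transcript strand only) is shown first for the 4 members with the longest ones, in windows of 30 bases with the repeat in capitals:
IGF2R: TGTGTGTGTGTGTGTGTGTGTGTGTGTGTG
IGF2BP1: gatatataTGTGTGTGTGTGTGctacatat
IGF1R: aggaaagggTGTGTGTGTGTGtatgtgtgg
IGFBP4: tgtgcgtgcgTGTGTGTGTGtttgtgagca
The IGF2R repeat ran for 34 bases in its 3′ UTR, beyond both ends of the window, and 0.656% of 19652 protein-coding genes had a run as long in their principal transcript. The runs of IGF2BP1 (14 bases), IGF1R (12 bases) and IGFBP4 (10 bases) also lay in the 3′ UTR, and runs as long were found in 2.80%, 3.94% and 6.50% of genes. At the other end, IGFBP5 and IGF2BP3 had no match to TGTGTG at all, a motif that 63.1% of genes held. A match describes these letters only and is not a measured TDP-43 site.

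A short coding stretch is shown next because the binding proteins share it and most of their copies hold TGTGTG. In the coding sequence of each IGFBP, in the C-terminal domain that they have in common, the stretch in capitals recurred in frame, identical in 4 of the 5 genes and with a synonymous difference in IGFBP5:
IGFBP2: cgtggggagTGCTGGTGTGTGaaccccaac
IGFBP3: cggggcttcTGCTGGTGTGTGgataagtat
IGFBP4: cgtggcaagTGCTGGTGTGTGgaccggaag
IGFBP5: cgtggcatcTGCTGGTGCGTGgacaagtac
IGFBP6: cgaggtcccTGCTGGTGTGTGgatcggatg
In IGFBP2, IGFBP3 and IGFBP6 this was the only match to TGTGTG in the whole transcript.

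Library totals ran from 18605745 to 21698339 counts. Levels are in CPM, the usual unit of a count relative to its library total, here after TMM scaling. Differences are log2 ratios (log2FC) followed by the standard error (SE) of edgeR's quasi-likelihood fit. The mean of both controls is taken on the log scale, with equal weight for each control hairpin. Folds against it therefore differ from ratios to the averaged CPM of the controls. A gene is called where its Benjamini-Hochberg adjusted p across the 17163 genes and repeat families tested is below 0.05, and only called changes are written as rose, fell, higher or lower. The targeted gene followed its label, with TARDBP at 18.9 and 24.0 CPM under its hairpin, 92.6 and 81.4 CPM under control hairpin 2 and 80.8 and 72.3 CPM under control hairpin 1. Of 11 sympathetic neuroblastoma markers, the only one at 0 in a whole group was TH, the first enzyme of catecholamine synthesis, with 0 counts under the TARDBP hairpin and at most 3 in any control library. Their summed level was 1082 to 1241 CPM under the TARDBP hairpin, 1851 to 2008 CPM under control hairpin 2 and 2659 to 2876 CPM under control hairpin 1, and 7 fell and 1 rose against the mean of both controls. The summed level of 8 fibroblast marker genes was 178 to 192 CPM under the TARDBP hairpin, 1845 to 1961 CPM under control hairpin 2 and 1470 to 1485 CPM under control hairpin 1, with no marker at 0 in any group, and 6 of the 8 fell and 1 rose. Most of the sum in the controls was COL3A1, which averaged 57.8 CPM under the TARDBP hairpin, 1616 CPM under control hairpin 2 and 1313 CPM under control hairpin 1. The size of the drop in the sum is therefore mainly that of 1 gene. DCN was the marker that rose (log2FC 2.43), and THY1 was not called (log2FC -0.12). Sums of 6 glial, 4 endothelial and 4 immune markers reached at most 3.17, 1.32 and 19.5 CPM in any library, with the endothelial CDH5 and the T cell gene CD3E at 0 in all groups. The part of these differences in the results below was not tested. Differences between all genes were common in this series: 48.2% of features were called against the mean of both controls, and 43.2% even between the control hairpins.

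Under the TARDBP hairpin, IGFBP3 and IGFBP5 rose and IGFBP2 and IGF2BP3 fell against the mean of both control hairpins, by 2.04-fold and 2.30-fold upwards and to 51.8% and 77.9% of the control level. IGF1R rose by 0.22 on the log2 scale. IGF2R, IGFBP4, IGFBP6 and IGF2BP2 were not called. Among the 10 genes 3 were thus higher and 2 lower, where 23.9% and 24.3% of all features tested were called in those directions. Both TARDBP libraries lay above all 4 control libraries for IGFBP3 and IGFBP5 and below them for IGF2BP3, as they did for 23.3% and 22.8% of all features. IGF2BP2 entered the test only through its counts under control hairpin 2, so these counts describe the genes and are not evidence about the family. The median log2FC of the 9 tested members was -0.05, and that of all features was 0.04.

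**Figure D1:**
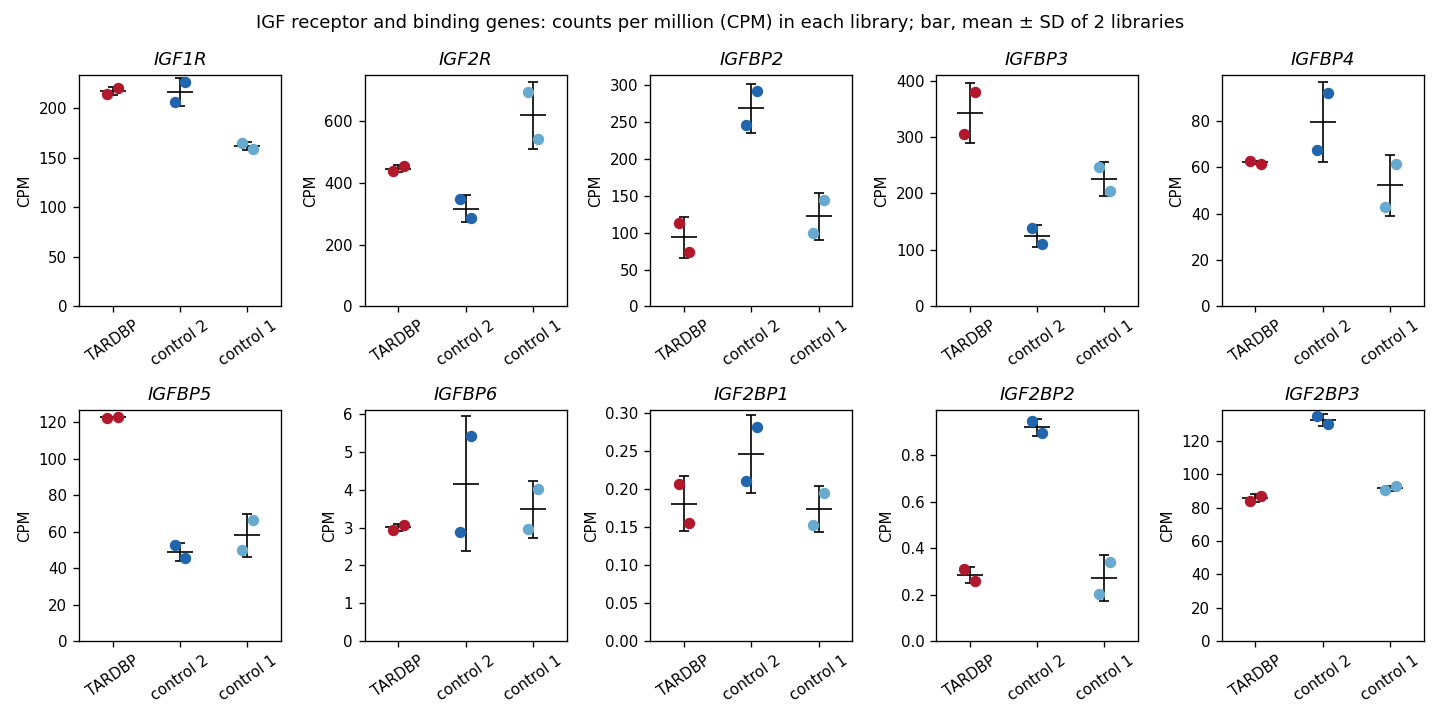
Level in CPM after TMM scaling (vertical axes, from 0) of the 10 genes in each of the 6 libraries, as points, with the mean and SD of 2 libraries as bars, grouped by hairpin (TARDBP left, then control 2, then control 1). IGFBP5 stood at 122 and 123 CPM under the TARDBP hairpin and between 45.5 and 66.5 CPM in the control libraries, whereas IGF2R under the TARDBP hairpin lay between the control groups.

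IGFBP5, a binding protein held in the extracellular matrix, was the member with the steadiest rise. Its counts were 2368 and 2368 under the TARDBP hairpin, 999 and 967 under control hairpin 2 and 979 and 1360 under control hairpin 1. As levels, it had 122 and 123 CPM under the TARDBP hairpin, against 52.6 and 45.5 CPM under control hairpin 2 and 49.9 and 66.5 CPM under control hairpin 1. Both TARDBP libraries therefore lay above all 4 control libraries, while the control groups overlapped. The log2FC was 1.20 (SE 0.116, adjusted p = 1.05e-04) against the mean of both controls, 1.32 (SE 0.141, adjusted p = 1.69e-04) against control hairpin 2 and 1.07 (SE 0.139, adjusted p = 4.85e-04) against control hairpin 1. Between the control hairpins it was not called, with a log2FC of -0.25 in control hairpin 2 against control hairpin 1 (SE 0.141, adjusted p = 0.185, 95% interval of the fold 0.674 to 1.05). That value rested on single libraries: it was -0.44 (adjusted p = 0.0382, a call) without control hairpin 1 replicate 1 and -0.03 (adjusted p = 0.874) without control hairpin 1 replicate 2. IGFBP5 was the only member called against the mean of both controls under each of the 13 alternative settings tried, with log2FC values of 1.10 to 1.30.

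IGFBP3, the main carrier of IGFs in serum and a reported p53 target, also rose against each control, but the controls differed as well. It stood at 305 and 380.0 CPM under the TARDBP hairpin, 139 and 111 CPM under control hairpin 2 and 247 and 204 CPM under control hairpin 1. No library of any group overlapped another group, and the order was TARDBP hairpin, control hairpin 1, control hairpin 2 from high to low. The log2FC was 1.03 (SE 0.128, adjusted p = 3.50e-04) against the mean of both controls, 1.46 (SE 0.155, adjusted p = 1.70e-04) against control hairpin 2 and 0.60 (SE 0.152, adjusted p = 0.0129) against control hairpin 1. In control hairpin 2 it was lower than in control hairpin 1 by a log2FC of -0.86 (SE 0.154, adjusted p = 0.00291), which was larger in size than the change between the TARDBP hairpin and control hairpin 1. The call against control hairpin 1 rested on single libraries: leaving out TARDBP hairpin replicate 2 gave a log2FC of 0.43 (adjusted p = 0.0880), and leaving out replicate 2 of control hairpin 1 gave 0.46 (adjusted p = 0.0881).

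The 250 bases before the annotated starts of these genes, both on the minus strand, are shown because IGFBP3 and IGFBP5 were the members that rose against both controls (RefSeq, GRCh38.p14, a different build from the authors' hg19). Capitals mark matches on either strand to the GC box GGGCGG, the only one of 3 motifs searched that was found in them:
IGFBP3 chr7:45921273-45921522: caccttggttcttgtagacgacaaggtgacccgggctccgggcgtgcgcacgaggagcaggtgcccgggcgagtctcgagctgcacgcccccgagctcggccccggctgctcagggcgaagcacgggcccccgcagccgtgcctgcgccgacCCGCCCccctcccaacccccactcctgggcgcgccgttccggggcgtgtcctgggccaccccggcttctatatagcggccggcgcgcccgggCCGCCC
IGFBP5 chr2:216695550-216695799: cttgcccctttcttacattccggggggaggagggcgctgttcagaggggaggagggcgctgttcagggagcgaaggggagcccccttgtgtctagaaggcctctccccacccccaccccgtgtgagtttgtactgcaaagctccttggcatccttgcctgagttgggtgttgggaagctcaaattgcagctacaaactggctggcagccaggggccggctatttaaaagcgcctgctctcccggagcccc
The IGFBP3 window held 2 GC boxes and was 76.0% G and C, and the IGFBP5 window held none and was 61.2% G and C, against a median of 58.0% over 35116 promoter windows of the same length. GC boxes were present in 42.6% of those windows. The other motifs searched, TATAAA (10.7% of windows) and CCAAT (32.0%), had no match in either sequence, which says only that these letters are not in the window.

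IGFBP2, a binding protein abundant in the nervous system, moved the other way. It stood at 114 and 74.5 CPM under the TARDBP hairpin, 246 and 293 CPM under control hairpin 2 and 99.4 and 145 CPM under control hairpin 1. The TARDBP libraries lay below both libraries of control hairpin 2 but overlapped those of control hairpin 1. IGFBP2 fell by 0.95 (SE 0.200, adjusted p = 0.00502) against the mean of both controls and by 1.52 against control hairpin 2 (SE 0.225, adjusted p = 8.94e-04). Against control hairpin 1 it was not called, with a log2FC of -0.38 (SE 0.223, adjusted p = 0.205, 95% interval of the fold 0.541 to 1.10), and the fall in the averaged comparison therefore rested on control hairpin 2. IGFBP2 was higher in control hairpin 2 than in control hairpin 1 (log2FC 1.14, SE 0.223, adjusted p = 0.00426). The comparison with control hairpin 1 depended on single libraries. Its log2FC was -0.72 (adjusted p = 0.0409, a call) without TARDBP hairpin replicate 1 and -0.11 (adjusted p = 0.736) without TARDBP hairpin replicate 2. It was -0.63 (adjusted p = 0.0727) without control hairpin 1 replicate 1 and -0.09 (adjusted p = 0.798) without control hairpin 1 replicate 2. IGFBP2 and IGFBP5 are direct neighbours among the protein-coding genes of chromosome 2, in RefSeq's GRCh38.p14 annotation, so the neighbours moved in opposite directions against the mean of both controls and against control hairpin 2.

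The remaining binding proteins showed no called change with the TARDBP hairpin. IGFBP4, which binds IGFs with an inhibitory effect, had 62.7 and 61.6 CPM under the TARDBP hairpin, 67.3 and 91.9 CPM under control hairpin 2 and 43.0 and 61.5 CPM under control hairpin 1. Its TARDBP values lay between those of the control groups, and the log2FC against their mean was -0.05 (SE 0.161, adjusted p = 0.802). IGFBP4 was higher in control hairpin 2 than in control hairpin 1 (log2FC 0.61, SE 0.186, adjusted p = 0.0292), a call lost without control hairpin 1 replicate 1 (0.37, adjusted p = 0.178) and without control hairpin 2 replicate 2 (0.38, adjusted p = 0.194). IGFBP6, which prefers IGF2 as its ligand, was rare, with 57 and 59 counts under the TARDBP hairpin, 55 and 115 under control hairpin 2 and 58 and 82 under control hairpin 1. Its groups overlapped in every comparison. The 95% interval of the fold against the mean of both controls ran from 0.510 to 1.22. A change of moderate size was therefore not detectable, given the spread between replicates as well as the low counts.

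The balance among the 5 binding proteins, which does not depend on how libraries are scaled, differed between the hairpins. IGFBP2 took 18.7% and 11.6% of their summed counts under the TARDBP hairpin, 48.4% and 53.6% under control hairpin 2 and 22.5% and 30.1% under control hairpin 1. IGFBP5 took 20.2% and 19.1% under the TARDBP hairpin, 10.4% and 8.33% under control hairpin 2 and 11.3% and 13.8% under control hairpin 1. The IGFBP5 share of both TARDBP libraries thus lay above that of all 4 control libraries. The IGFBP3 share was 50.3% and 59.2% under the TARDBP hairpin, 27.4% and 20.3% under control hairpin 2 and 55.9% and 42.4% under control hairpin 1, so that it overlapped between the TARDBP hairpin and control hairpin 1. The count of IGFBP5 per count of IGFBP2 was 1.08 and 1.65 under the TARDBP hairpin, 0.214 and 0.156 under control hairpin 2 and 0.502 and 0.459 under control hairpin 1, with no overlap between any of them. This ratio joins a member that rose with one that fell against the mean of both controls, so it restates those changes and is not further evidence. How often other gene pairs separate in the same way was not determined. The summed level of the 5 genes was 606 and 642 CPM under the TARDBP hairpin, 507 and 546 CPM under control hairpin 2 and 442 and 481 CPM under control hairpin 1.

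**Figure D2:**
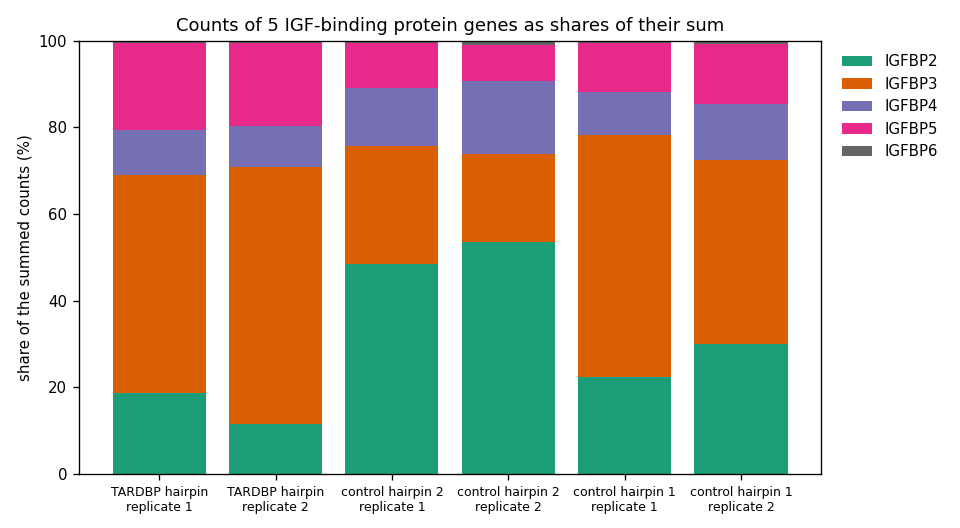
Share of the summed counts of 5 IGF-binding protein genes (vertical axis, percent) taken by each gene in each library, without scaling for gene length. The IGFBP5 segment takes 20.2% and 19.1% in the TARDBP hairpin libraries and at most 13.8% in a control library, and IGFBP2 takes most in control hairpin 2 (48.4% and 53.6%).

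Per kilobase of annotated exon (GENCODE v29), which allows levels to be compared between genes, IGFBP3 was the most abundant member under the TARDBP hairpin at 130.0 CPM per kb and IGFBP2 under control hairpin 2 at 172 CPM per kb. Under control hairpin 1, IGFBP3 and IGFBP2 stood at 85.7 and 77.9 CPM per kb. IGFBP6 was far below, at 2.24 CPM per kb under the TARDBP hairpin, 3.09 CPM per kb under control hairpin 2 and 2.59 CPM per kb under control hairpin 1.

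The receptors gave different answers against each control. IGF1R stood at 214 and 220.1 CPM under the TARDBP hairpin, 206 and 226 CPM under control hairpin 2 and 164 and 159 CPM under control hairpin 1. The TARDBP libraries fell within the range of control hairpin 2 and above both libraries of control hairpin 1. The log2FC against control hairpin 1 was 0.43 (SE 0.0871, adjusted p = 0.00476), while against control hairpin 2 it was 0.01 (SE 0.0868, adjusted p = 0.954, 95% interval of the fold 0.876 to 1.15). IGF1R was likewise higher in control hairpin 2 than in control hairpin 1 (log2FC 0.42, SE 0.0871, adjusted p = 0.00555). The call against the mean of both controls (log2FC 0.22, SE 0.0746, adjusted p = 0.0407) was lost under 12 of 13 alternative settings, where adjusted p ranged up to 0.470.

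IGF2R stood at 439 and 454 CPM under the TARDBP hairpin, 348 and 285 CPM under control hairpin 2 and 697 and 543 CPM under control hairpin 1. The 3 groups did not overlap, and the TARDBP hairpin lay between the controls. IGF2R therefore rose against control hairpin 2 (log2FC 0.49, SE 0.139, adjusted p = 0.0176) and fell against control hairpin 1 (log2FC -0.47, SE 0.139, adjusted p = 0.0240), and against their mean the log2FC was 0.01 (SE 0.120, adjusted p = 0.950). The difference between the control hairpins themselves was larger, with IGF2R lower in control hairpin 2 by a log2FC of -0.97 (SE 0.140, adjusted p = 0.00102). Both calls with the TARDBP hairpin were lost without either TARDBP library, with adjusted p of 0.0506 and 0.0770 against control hairpin 2 and 0.0987 and 0.0754 against control hairpin 1. The rise was also lost when replicate 2 of control hairpin 2 was left out (log2FC 0.32, adjusted p = 0.152), and the fall when replicate 1 of control hairpin 1 was (log2FC -0.29, adjusted p = 0.149). The strand setting of the counting is not given, so antisense transcription such as AIRN could be included in its counts.

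There were 2.05 and 2.06 counts of IGF2R per count of IGF1R under the TARDBP hairpin, 1.69 and 1.26 under control hairpin 2 and 4.24 and 3.43 under control hairpin 1. The TARDBP value again lay between those of the control groups.

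**Figure D3:**
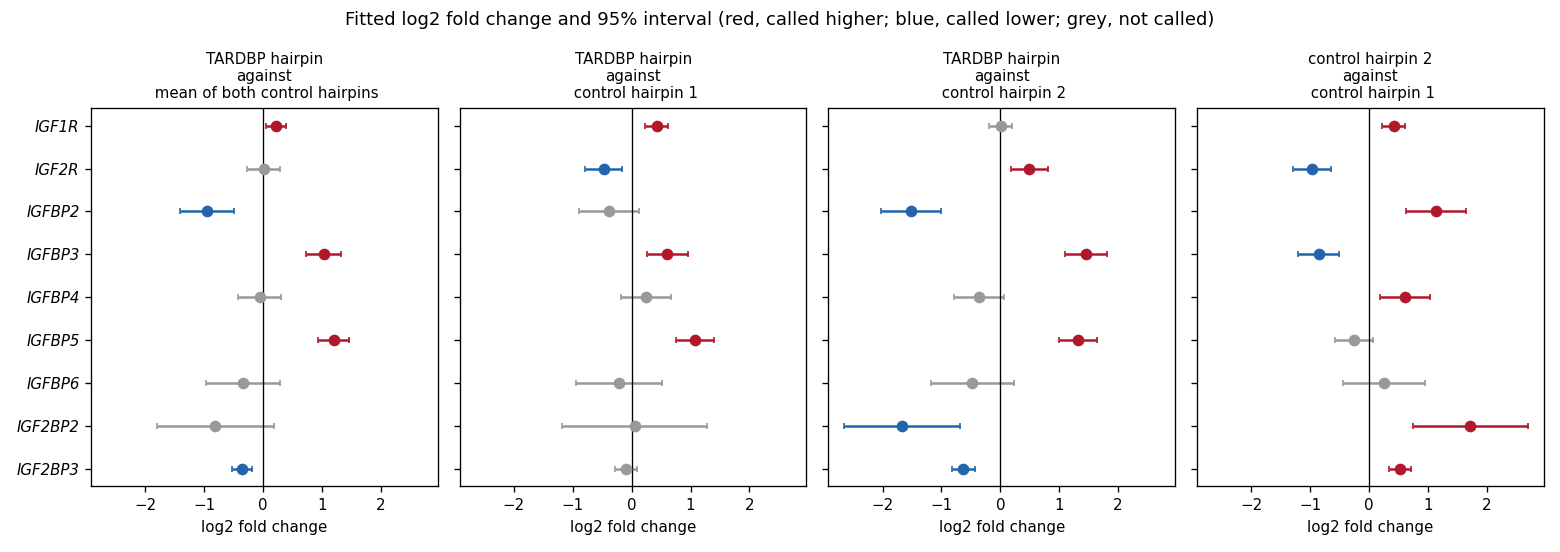
Log2 fold change (horizontal axis) with its 95% interval from the fit for the 9 tested members in 4 comparisons, with members down the page and calls at adjusted p below 0.05 in red (higher) and blue (lower). IGFBP5 is called in all 3 comparisons with the TARDBP hairpin (log2FC 1.20, 1.07 and 1.32) and not between the controls, and IGF2R has opposite signs against control hairpin 1 (-0.47) and control hairpin 2 (0.49).

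Of the IGF2 mRNA-binding proteins, only IGF2BP3 was well detected, with 1629 to 2757 counts per library. It stood at 84.2 and 87.2 CPM under the TARDBP hairpin, 135 and 129.8 CPM under control hairpin 2 and 90.3 and 92.7 CPM under control hairpin 1. Both TARDBP libraries lay below all 4 control libraries, by a narrow margin from control hairpin 1. IGF2BP3 fell by 0.36 against the mean of both controls (SE 0.0727, adjusted p = 0.00401) and by 0.63 against control hairpin 2 (SE 0.0828, adjusted p = 4.90e-04). Against control hairpin 1 it was not called (log2FC -0.09, SE 0.0829, adjusted p = 0.394, 95% interval of the fold 0.822 to 1.07), and it was higher in control hairpin 2 than in control hairpin 1 (log2FC 0.53, SE 0.0826, adjusted p = 0.00145). The fall against the mean thus came from control hairpin 2.

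IGF2BP2 and IGF2BP1 were close to the limit of detection. IGF2BP2 had 6 and 5 counts under the TARDBP hairpin, 18 and 19 under control hairpin 2 and 4 and 7 under control hairpin 1. It entered the test only through control hairpin 2, where it was highest, so its calls involving that group are not evidence of a difference. The log2FC was -1.67 against control hairpin 2 (SE 0.429, adjusted p = 0.0120) and 1.72 in control hairpin 2 against control hairpin 1 (SE 0.428, adjusted p = 0.0124). Each of these calls was lost under 4 of 12 alternatives, DESeq2 among them (adjusted p = 0.0861 and 0.0874). Against control hairpin 1 the log2FC of 0.05 had a 95% interval of the fold from 0.443 to 2.43, so a moderate change was not detectable at this depth. IGF2BP1 had 4 and 3 counts under the TARDBP hairpin, 4 and 6 under control hairpin 2 and 3 and 4 under control hairpin 1, too few to test.

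Set side by side, the comparisons differed in which members they called. Against control hairpin 1, IGF1R, IGFBP3 and IGFBP5 rose and IGF2R fell (of all features, 42.9% were called, 21.1% higher and 21.8% lower). Against control hairpin 2, IGF2R, IGFBP3 and IGFBP5 rose and IGFBP2, IGF2BP2 and IGF2BP3 fell (50.2% called, 24% higher and 26.2% lower). In control hairpin 2 against control hairpin 1, IGF1R, IGFBP2, IGFBP4, IGF2BP2 and IGF2BP3 were higher and IGF2R and IGFBP3 lower (43.2% called, 22.8% higher and 20.4% lower). Groups that did not overlap were also common among all features, at 37.4% above and 34.5% below against control hairpin 1, 38.5% above and 37.8% below against control hairpin 2, and 37% above and 37.8% below between the controls. A test for any difference among the 3 hairpins called 8 of the tested members, with IGFBP6 not called (adjusted p = 0.386), where 65.6% of all features were called. The calls of IGF2BP2 in these counts carry no weight, because it entered the test only through control hairpin 2, where it was highest. These comparisons share libraries and are not independent. In bulk RNA, fewer cells of a type and less RNA per cell cannot be told apart.

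**Figure D4:**
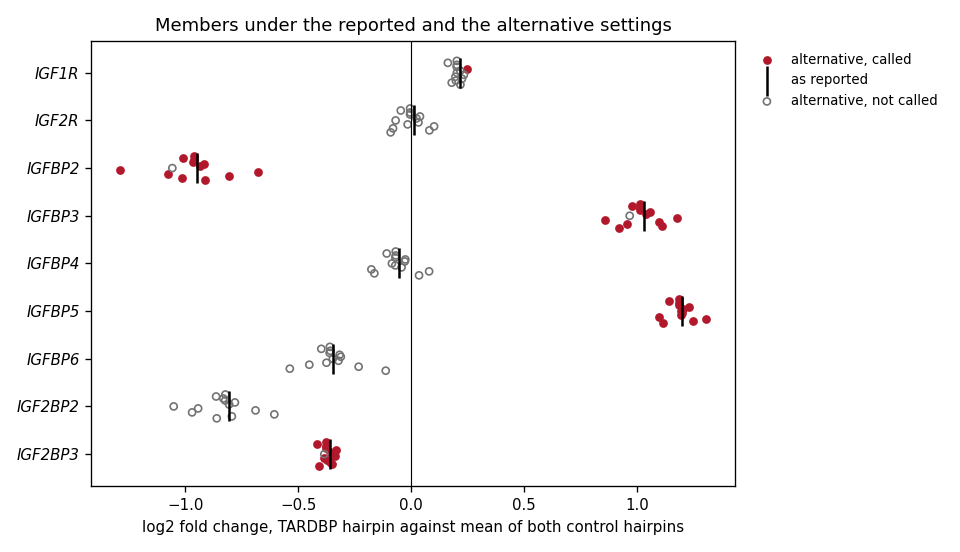
Log2 fold change against the mean of both control hairpins (horizontal axis) for each tested member as reported (black bar) and under the 13 alternative settings (points, filled where called). IGFBP5 is called in all of them between 1.10 and 1.30, IGF1R in 1 of 13, and IGF2R scatters on both sides of 0.

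The ligands of this system were nearly absent under the TARDBP hairpin. IGF1 and INS had 0 counts in all 6 libraries, which allows at most 0.141 to 0.158 CPM per library from the 3 counts that a 0 cannot exclude, for counting error only. IGF2 had 8 and 5 counts under the TARDBP hairpin, 145 and 385 under control hairpin 2 and 1795 and 2247 under control hairpin 1, and it fell against each control (log2FC -5.24 against control hairpin 2 and -8.20 against control hairpin 1, adjusted p = 1.79e-04 and 1.60e-05). The insulin receptor gene INSR stood at 17.8 and 14.6 CPM under the TARDBP hairpin, 27.7 and 28.4 CPM under control hairpin 2 and 78.7 and 67.8 CPM under control hairpin 1. INSR fell against both controls (log2FC -0.79 against control hairpin 2, adjusted p = 0.00156, and -2.17 against control hairpin 1, adjusted p = 1.49e-05), so IGF1R and INSR, kinase receptors of one family, differed in direction against control hairpin 1. The insulin receptor-related gene INSRR was not called (log2FC -0.24, adjusted p = 0.313).

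Among other proteins that bind IGFs, IGFBPL1, an IGFBP-like protein, stood at 27.2 ± 10.9 CPM under the TARDBP hairpin, 65.7 ± 7.99 CPM under control hairpin 2 and 90.4 ± 4.35 CPM under control hairpin 1 (SD, n = 2 each), and fell by 1.50 against the mean of both controls (SE 0.207, adjusted p = 5.94e-04). IGFBP7 was not called against that mean (log2FC 0.11, adjusted p = 0.536) but was higher than in control hairpin 1 (log2FC 1.12, adjusted p = 0.00135) and lower than in control hairpin 2 (log2FC -0.89, adjusted p = 0.00209). IGFALS, which joins IGFBPs in serum complexes, was called in none of the 4 comparisons, and IGFBP1, the protein-coding neighbour of IGFBP3 on chromosome 7, had 0 counts in all 6 libraries.

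Of 10 proteases of IGFBPs and their inhibitors, 9 were tested. Against the mean of both controls 4 rose and 5 fell (median log2FC -0.40), where 23.9% and 24.3% of all features were called in those directions. PAPPA2, among those that rose, had 63 and 40 counts under the TARDBP hairpin. It had 15 and 9 under control hairpin 1 and 8 and 5 under control hairpin 2. PAPPA2 entered the test only through the TARDBP hairpin, where it was highest. Its calls against the mean and against each control therefore carry no weight in these counts. The counts differed with the control. With control hairpin 1 as reference, 5 rose and 3 fell (median log2FC 0.62), beside 21.1% and 21.8% of all features (median 0.03). With control hairpin 2 as reference, 2 rose and 5 fell (median -0.45), beside 24% and 26.2% of all features (median 0.02). In control hairpin 2 against control hairpin 1, 6 were higher and 0 lower (median 1.47), beside 22.8% and 20.4% of all features (median -0.01). Against the mean of both controls, MMP2, a gelatinase, fell by 1.44 (SE 0.0882), ADAM12 fell by 1.82 (SE 0.116), ADAM9 rose by 1.42 (SE 0.0944) and PLAT, tissue plasminogen activator, rose by 1.37 (SE 0.0943), with adjusted p of at most 2.18e-05. ADAM9 stood at 105 ± 12.7 CPM under the TARDBP hairpin, 144 ± 11.6 CPM under control hairpin 2 and 10.8 ± 0.202 CPM under control hairpin 1, and was lower than in control hairpin 2, so its rise came from control hairpin 1. ADAM12 and PLAT kept their direction against each control but differed in size. The log2FC of ADAM12 was -0.75 against control hairpin 1 and -2.89 against control hairpin 2, beside 2.15 in control hairpin 2 against control hairpin 1. That of PLAT was 2.10 against control hairpin 1 and 0.63 against control hairpin 2. PAPPA, the metalloproteinase that cuts IGFBP4 and was singled out after its values were seen, averaged 324 ± 24.3 CPM under the TARDBP hairpin, 1154 ± 105 CPM under control hairpin 2 and 211 ± 51.1 CPM under control hairpin 1, and like IGF2R it lay between the controls.

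Downstream of the receptors, 5 of 30 tested genes of insulin and IGF signalling rose and 13 fell against the mean of both controls, with a median log2FC of -0.21, where 23.9% of all features rose and 24.3% fell. Between the control hairpins, 9 of the 30 were higher and 9 lower in control hairpin 2, beside 22.8% and 20.4% of all features. GRB10, among the higher ones, had 28 and 14 counts under control hairpin 2. It had 8 and 7 under the TARDBP hairpin and 2 and 5 under control hairpin 1. GRB10 entered the test only through control hairpin 2, where it was highest, so its call carries no weight. Against the mean of both controls, TSC2, a brake on mTOR, fell by 1.03 (SE 0.0777, adjusted p = 3.31e-05). It stood at 62.9 ± 3.40 CPM under the TARDBP hairpin, 109 ± 3.12 CPM under control hairpin 2 and 151 ± 0.529 CPM under control hairpin 1 (SD, n = 2 each). The kinase gene AKT1 fell by 0.79 (SE 0.0794, adjusted p = 1.21e-04). Of the transcription factors that AKT restrains, FOXO1 rose by 1.14 (SE 0.106, adjusted p = 8.84e-05) and FOXO3 fell by 0.69 (SE 0.0772, adjusted p = 2.14e-04). With the 4 control libraries as 1 group, 2 of the signalling genes rose and 6 fell. Of all 17163 features tested, 1054 rose and 1518 fell in that setting.

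IGF2R shares its lysosomal cargo with a smaller receptor, M6PR, which fell by 0.36 (SE 0.0822, adjusted p = 0.00731) against the mean of both controls as the only one of 4 genes of the mannose 6-phosphate pathway called in that comparison. GNPTAB, a subunit of the enzyme that makes the mannose 6-phosphate tag, was called higher against control hairpin 1 (log2FC 0.40, adjusted p = 0.0132) and higher in control hairpin 2 than in control hairpin 1 (log2FC 0.62, adjusted p = 0.00177). In the list of oncofetal genes and reported IGF2BP targets, 7 of 10 tested fell and 0 rose against the mean of both controls (median log2FC -0.75), beside the same 24.3% and 23.9% of all features. Those that fell included IGF2 itself, the imprinted noncoding RNA H19 (log2FC -5.46, SE 0.367), BTRC (-1.07, SE 0.128) and MAPK4 (-1.50, SE 0.224), each with an adjusted p of at most 8.92e-04. Against control hairpin 1, 5 fell and 2 rose, beside 21.8% and 21.1% of all features. The 2 were CD44 (log2FC 0.32, adjusted p = 0.0493) and MYC (log2FC 1.29, adjusted p = 0.00974). Against control hairpin 2, 8 fell, MYC among them (log2FC -2.08, adjusted p = 3.76e-04), and 0 rose, beside 26.2% and 24% of all features. The control hairpins also differed here. In control hairpin 2, 4 genes were higher and 5 lower than in control hairpin 1, beside 22.8% and 20.4% of all features. The lower ones were IGF2 (log2FC -2.96), H19 (log2FC -2.80), BTRC, MAPK4 and MAPT. CD44 and MYC were named after their values were seen. HMGA2 and LIN28A were not tested for lack of counts, as was IGF2BP1.

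**Figure D5:**
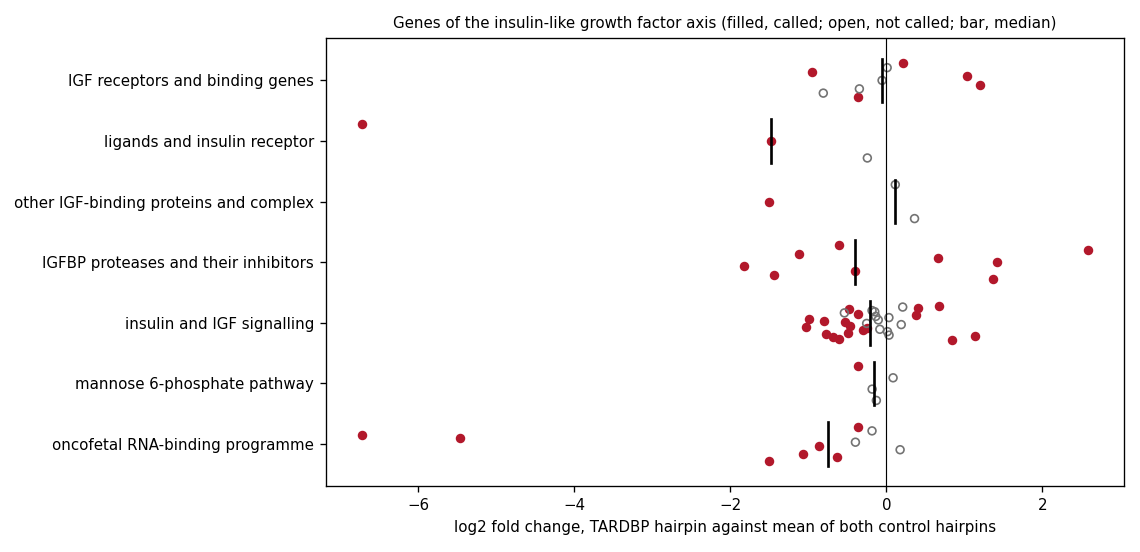
Log2 fold change against the mean of both control hairpins (horizontal axis) of every tested gene in 7 lists of the IGF axis, filled where called, with the list's median as a bar. IGF2 (log2FC -6.72, in 2 lists) and H19 (-5.46) stand farthest to the left, and the receptors and binding genes spread on both sides of 0 around a median of -0.05.

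The genes closest in pattern to each member were sought among those whose log2 CPM averaged 3 or more over the libraries (10536 genes, or 10537 for IGFBP6 and IGF2BP2), by the root mean square difference of log2 CPM centred on the mean of the 6 libraries. MSX2 (0.06) and RRM2B (0.10) were nearest to IGFBP5, and ZNF558 (0.05) and SFRP1 (0.09) to IGFBP3. VGF (0.08) and TUBB3 (0.11) were nearest to IGFBP2, and HBP1 (0.05) and ZDHHC23 (0.06) to IGF2R. For the members with smaller changes the distances were 0.03 for IGF1R (HAUS6 and NCOA5), 0.04 for IGF2BP3 (AMPD2 and POLA1), and 0.05 and 0.07 for IGFBP4 (ROMO1 and BAG2). The distances describe 6 libraries in 3 groups. IGFBP6 was at least 0.14 from its nearest genes, TEAD2 and WDR83OS. IGF2BP2, with few counts, lay 0.08 from FOSL2 and 0.09 from THSD7A. Both stood highest in control hairpin 2, as IGF2BP2 did, which follows from how they were chosen.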

How the data were processed

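The values were raw counts per gene symbol and repeat family, 1 deposited file per library. The submitters' processing notes name bcl2fastq, STAR 2.5.2b and the genome build hg19 for the authors' steps. Strand-specific libraries were made from total RNA depleted of ribosomal RNA, per the labels' protocols. Not given in the sources used here are the program that counted the reads, its annotation and strand setting, and how multiply mapped reads were handled. The members and gene lists were chosen with earlier results of these data known.

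The filter filterByExpr, with hairpins as groups, a minimum count of 10 and a minimum total of 15, kept 17163 of 28953 features. R 4.3.3 and edgeR 4.0.16 (TMM, quasi-likelihood, one model of 3 groups, 3 residual degrees of freedom, biological coefficient of variation 10.5%) gave 4 contrasts and a test of any difference, adjusted by Benjamini and Hochberg over all features; SE is the absolute log2FC over the square root of F. The code was tested on simulated data. Alternatives were DESeq2 1.42.0 and its size factors, library totals, no filter, genes only, a replicate block, pooled controls and leaving out each library. All 10 members were named, with ligands and related receptors, up to 4 called genes per list by lowest p (all where 5 or fewer were called), and the 2 nearest genes per member. Exon lengths and transcripts came from GENCODE v29 and promoters from RefSeq, both on GRCh38 and matched by symbol; IGF2BP1 has no promoter shown. Intervals and floors cover counting or fitted error only.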

Additional observations from a re-analysis of the deposited data

How the results depend on the processing

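With 2 libraries per hairpin, calls near the threshold depended on single libraries, and the least abundant members were limited by counts. Treating the 4 control libraries as 1 group, which counts the difference between control hairpins as spread, left 1 member higher (IGFBP5) and 0 lower against the mean of both controls, with 1054 features higher and 1518 lower. IGFBP2 (log2FC -1.06, adjusted p = 0.169), IGFBP3 (0.97, 0.0875) and IGF2BP3 (-0.38, 0.253) lost their calls there. Leaving out 1 library at a time gave 2622 to 3625 features higher against that mean, the lowest without TARDBP hairpin replicate 2. It gave 2337 to 3374 features higher against control hairpin 1 (lowest without control hairpin 1 replicate 1), with 0 to 1 members lower. It gave 2151 to 3950 features higher against control hairpin 2, the lowest without control hairpin 2 replicate 2. Between the controls it gave 2472 to 3896 features higher, 1661 to 3448 lower and 3 to 5 members higher.

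Uncalled values near 0 changed sign. IGF2R against the mean of both controls was -0.00507 with DESeq2 size factors, -0.00508 with DESeq2, -0.00528 with no filter, -0.0465 with library totals, -0.0693 with pooled controls, and -0.0912 to 0.101 without 1 library. IGF1R against control hairpin 2 was -0.00788 with DESeq2 size factors, -0.00792 with DESeq2, -0.0289 with library totals, -0.000184 with no filter, and -0.0619 to 0.0360 without 1 library. IGF2BP2 against control hairpin 1 was -0.0212 with library totals and -0.267 to 0.462 without 1 library. Without 1 library IGFBP4 against the mean ran from -0.177 to 0.0790, and IGFBP6 from -0.423 to 0.0147 against control hairpin 1, from -0.853 to 0.0163 against control hairpin 2 and from -0.259 to 0.631 between the controls. The cause of these changes was not tested beyond the construction of each setting.

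With the replicate number as a replicate block, 3741 features were higher and 3902 lower against the mean of both controls, and IGF1R lost its call (0.22, adjusted p = 0.0709). The labels do not say that a number pairs libraries, and differences between replicates correlated across features at -0.23 and -0.25 between the TARDBP hairpin and control hairpins 1 and 2 and at 0.23 between the controls.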
